A study of Mus musculus with 12 samples.

Results

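The 7 genes described here encode chemokine receptors of splenic B cells: the atypical receptors Ackr2 and Ackr3 and the classical receptors Cxcr4, Cxcr5, Ccr7, Ccr6 and Cxcr3. They were chosen by name, with earlier results of these data known. Each matched 1 of the 46078 genes in the count table through its GENCODE mouse symbol. Transcripts were measured by RNA sequencing in 12 libraries of splenic B cells of C57BL/6 mice, which were 8 to 12 weeks old. A magnetic isolation kit parted the cells into follicular (FO) B cells and B cells of the marginal zone (MZ). Control mice carried the VAVcre transgene (their genotype field reads WT), and CKO mice carried VAVcre with a deleted conditional Zbtb24 allele (Zbtb24-/-). Each subset had 3 control and 3 CKO libraries, named by subset and genotype (FO Control, for example). The libraries carry 6 animal numbers, each once among FO and once among MZ libraries, so an FO and an MZ library of a number are taken to come from 1 mouse. Vav-driven Cre acts throughout the blood lineage, so other white blood cells of CKO mice carry the deletion as well as the B cells. The sex of the mice and the number of cells sorted were not given in the sources used here.

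Chemokines are small secreted proteins that guide white blood cells along gradients. Classical chemokine receptors couple to inhibitory G proteins and drive migration, whereas atypical receptors do not signal through G proteins and take up and degrade the chemokine. In the spleen, CXCL13 made by follicular stroma attracts B cells through CXCR5, CCL19 and CCL21 draw cells toward the T cell zone through CCR7, and CXCL12 acts on CXCR4 and on the atypical receptor ACKR3. FO B cells recirculate through the follicles, while MZ B cells lie at the edge of the white pulp and meet antigen from the blood.

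Library depth, as the sum of gene counts, lay between 36340116 and 44629250. Zbtb24 itself was counted in every library: 60.8 to 62.5 CPM (counts scaled to a common library size) in FO Control, 46.9 to 50.04 CPM in FO CKO, 49.1 to 54.4 CPM in MZ Control and 41.8 to 46.4 CPM in MZ CKO libraries. Its CKO libraries lay below the control libraries in both subsets, but neither difference passed (edgeR adjusted p = 0.1943 in FO and 1 in MZ), and reads over the deleted part were not told apart. The subset labels were compared with marker lists. These lists were chosen with earlier results of these data known, so this is not an independent check. All 7 FO B cell markers (Fcer2a and Itgb7 among them) were lower and all 9 MZ B cell markers (Cr2, Cd1d1 and S1pr3 among them) were higher in MZ than in FO libraries, in control and in CKO mice. Over all genes tested, 14.9% were higher and 13% lower in control mice, and 10.5% and 7.78% in CKO mice. Pan-B markers summed to 5635 to 7557 CPM across all libraries. T cell markers summed to 155 to 428 CPM, and macrophage and monocyte markers to 153 to 466 CPM. Markers of both kinds were thus counted in every library. These are bulk libraries, in which fewer cells of a type and less RNA per cell cannot be told apart.

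The comparison of MZ with FO B cells in control mice asks how receptor transcripts differ between the subsets. All 7 receptor genes passed, 3 higher and 4 lower in MZ libraries, where 27.9% of the 17830 genes tested passed, 14.9% higher and 13% lower. The MZ and FO libraries did not overlap for any of the 7 genes in control mice, as for 42.3% of all genes. The two-sided permutation p was 0.1 for each, the smallest that 3 libraries against 3 allow. That permutation exchanged libraries freely across mice and ignored the pairing, so it is not an exact test of this paired comparison. Ackr3 was 50.2-fold and Ackr2 25.1-fold higher in MZ than in FO B cells, and Cxcr5 was 1.30-fold higher. Cxcr4 was 4.17-fold, Ccr7 2.63-fold, Ccr6 2.09-fold and Cxcr3 1.595-fold lower. In CKO mice 6 of the 7 passed in the same directions, where 18.3% of the 17712 genes tested passed (10.5% higher, 7.78% lower), and Cxcr3 did not. The same 6 genes did not overlap between subsets in CKO mice, as for 36.4% of all genes. The FO and MZ libraries of a mouse vary together, and with the mouse as a replicate block the share of genes that passed rose to 43.8% in control and 35.8% in CKO mice, while no call of a receptor gene changed.

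**Figure D1:**
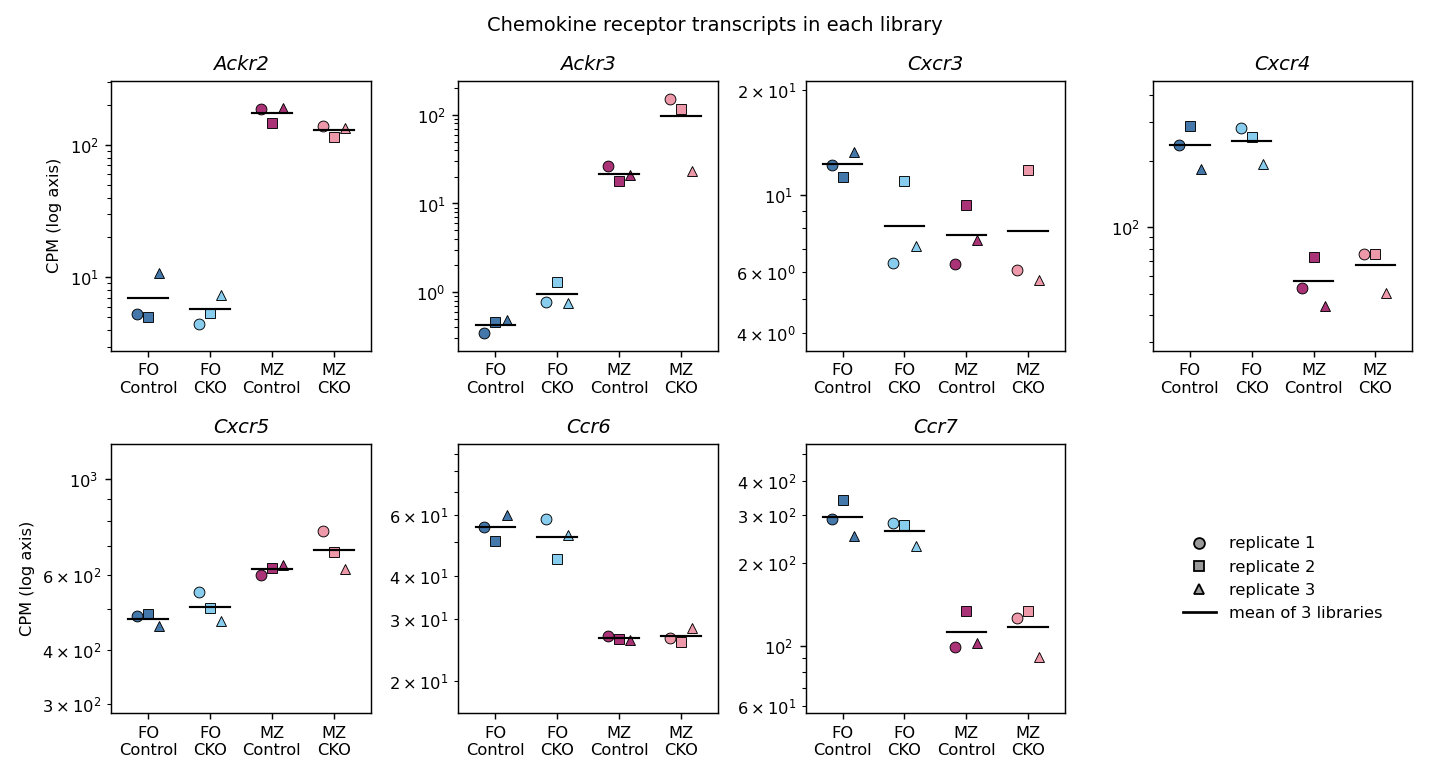
Level of each receptor gene in CPM (log axis) in the 12 libraries, with 1 point per library, a shape for each replicate number and a line at the mean of 3. Ackr2 and Ackr3 sit far higher in the MZ groups, Cxcr4, Ccr7 and Ccr6 sit higher in the FO groups, and Ackr3 is split within MZ CKO.

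Ackr2 encodes a scavenger of inflammatory CC chemokines such as CCL2 and CCL5. The gene (ENSMUSG00000044534) lies on chromosome 9, 121898355 to 121911074 of GRCm38. Its level was 5.25, 4.999 and 10.7 CPM in the FO Control libraries and 188, 147 and 190 CPM in the MZ Control libraries. In CKO mice it was 4.47, 5.39 and 7.34 CPM in FO and 140, 114 and 135 CPM in MZ libraries. Each MZ library was thus far above each FO library, and the lowest MZ level belonged to mouse 1514. The MZ over FO difference was 4.65 on the log2 scale (SE 0.38, adjusted p = 0.001383) in control mice and 4.51 (SE 0.20, adjusted p = 3.046e-05) in CKO mice. Within a mouse, the MZ library held 17.7 to 35.9 times the FO level in control mice and 18.4 to 31.3 times in CKO mice. FO Control replicate 3, which had the highest FO level of Ackr2, also had the highest summed level of MZ B cell markers among the FO Control libraries, 1674 CPM against 1251 and 1332 CPM. Among FO CKO libraries replicate 3 was highest in both as well, with summed markers of 1792 CPM against 1496 and 1519 CPM. The part of MZ cells in the FO level of Ackr2 was not tested.

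Ackr3 encodes the scavenger receptor for CXCL12, which it shares with CXCR4. The gene (ENSMUSG00000044337) lies on chromosome 1, 90203980 to 90216751. Its FO Control libraries held 14, 19 and 20 reads, which is 0.348, 0.454 and 0.488 CPM, and its MZ Control libraries 26.2, 17.95 and 21.2 CPM. In CKO mice it was at 0.782, 1.31 and 0.760 CPM in FO libraries and at 151, 117 and 23.3 CPM in MZ libraries. Every MZ library was far above every FO library, and the 3 MZ CKO libraries did not form 1 level. The MZ over FO difference was 5.65 on the log2 scale (SE 0.20, adjusted p = 1.153e-08) in control mice and 6.68 (SE 1.02, adjusted p = 0.01801) in CKO mice. The call in CKO mice was lost without FO CKO replicate 1 (adjusted p = 0.09771), 2 (0.08067) or 3 (0.08645) and without MZ CKO replicate 2 (0.05453), with the log2 difference still at 6.53 to 6.98. Within a mouse the ratio of MZ to FO was 39.5 to 75.2 in control mice and 30.6, 89.3 and 193 in CKO mice, the highest being mouse 1512.

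The 250 bases before the RefSeq transcript start of both atypical receptor genes are shown because these 2 genes rose together in MZ libraries, and the same window of Cxcr4 is shown as that of the receptor gene with the largest fall. The sequences run 5′ to 3′ on the gene's strand, from RefSeq windows on build GRCm38.p6, at chr9:121898105-121898354 (plus strand), chr1:90203730-90203979 (plus strand) and chr1:128592300-128592549 (minus strand). Windows were found for 5 of the 7 genes, all but Cxcr5 and Ccr7. Capitals mark CCNCNCCC on either strand, the letters bound by Krüppel-like factors such as KLF2.
Ackr2: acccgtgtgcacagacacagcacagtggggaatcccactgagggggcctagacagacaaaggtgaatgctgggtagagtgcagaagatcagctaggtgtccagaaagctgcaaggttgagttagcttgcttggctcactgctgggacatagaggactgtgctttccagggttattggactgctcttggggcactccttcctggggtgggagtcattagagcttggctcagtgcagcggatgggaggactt
Ackr3: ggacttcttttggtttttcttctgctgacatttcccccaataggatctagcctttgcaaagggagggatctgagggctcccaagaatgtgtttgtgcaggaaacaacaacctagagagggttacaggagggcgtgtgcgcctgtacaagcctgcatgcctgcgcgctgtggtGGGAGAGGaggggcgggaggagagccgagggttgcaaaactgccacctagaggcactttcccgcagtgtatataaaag
Cxcr4: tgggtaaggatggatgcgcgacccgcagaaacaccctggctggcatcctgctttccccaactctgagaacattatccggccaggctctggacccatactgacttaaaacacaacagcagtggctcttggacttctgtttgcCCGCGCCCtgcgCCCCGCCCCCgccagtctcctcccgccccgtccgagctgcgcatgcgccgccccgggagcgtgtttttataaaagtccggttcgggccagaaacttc
CCNCNCCC occurred in 45.9% of the 32851 windows of this length, in Ackr3 once, 78 bases before the start, and in Cxcr4 at 109, 97 and 95 bases before the start, the last 2 overlapping. TGGGAA, the core letters bound by RBPJ, the transcription factor of Notch signalling, occurred in 21.6% of windows on either strand and in neither Ackr2 nor Ackr3. CAGGACCT, letters bound by ZBTB24, occurred in 1.63% of windows on either strand and in 0 of the 6 windows of the 5 genes. A match is only a match of letters, and the absence of one covers only these 250 bases.

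Cxcr4 encodes the classical receptor for CXCL12, which holds B cells in bone marrow and directs them within lymphoid tissue. The gene (ENSMUSG00000045382) lies on chromosome 1, 128588199 to 128592293, on the minus strand. Its level was 237, 289 and 185 CPM in the FO Control libraries and 53.1, 73.3 and 43.9 CPM in the MZ Control libraries. In CKO mice it was 284, 258 and 195 CPM in FO and 75.6, 75.9 and 50.3 CPM in MZ libraries. All MZ libraries lay below all FO libraries, with a log2 difference of -2.06 (SE 0.27, adjusted p = 0.006074) in control and -1.86 (SE 0.23, adjusted p = 0.003989) in CKO mice. The ratio within a mouse varied little, at 0.224, 0.253 and 0.237 in control mice and 0.266, 0.294 and 0.258 in CKO mice. Ackr3 and Cxcr4, the 2 receptors for CXCL12, thus differed between the subsets in opposite directions.

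Cxcr5 encodes the receptor for CXCL13 that brings B cells into follicles. The gene (ENSMUSG00000047880) lies on chromosome 9, 44511787 to 44561877, on the minus strand. Its level was 481, 485 and 457 CPM in the FO Control and 600, 622 and 632 CPM in the MZ Control libraries. In CKO mice it was 546, 503 and 469 CPM in FO and 757, 679 and 620 CPM in MZ libraries. MZ libraries were higher in both genotypes without overlap, by 0.38 on the log2 scale (SE 0.06, adjusted p = 0.0008734) in control and 0.45 (SE 0.10, adjusted p = 0.01251) in CKO mice. The call in CKO mice was narrowly lost without FO CKO replicate 3 (adjusted p = 0.05329). Exons of Cxcr5 overlap those of Bcl9l on the opposite strand, and the sources used here do not give the strand setting of the counting, so reads from the overlap could not be assigned with certainty. Bcl9l averaged 52.3 ± 4.13 CPM (SD, n = 3) in FO Control libraries against 46.6 ± 2.56 CPM in MZ Control libraries, a small difference in the other direction that did not pass (edgeR adjusted p = 0.1313).

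Ccr7 encodes the receptor for CCL19 and CCL21, and Ccr6 the receptor for CCL20. Ccr7 (ENSMUSG00000037944, chromosome 11, 99144196 to 99155077) stood at 290, 341 and 252 CPM in the control FO libraries and 99.0, 134 and 102 CPM in MZ Control libraries. In CKO mice Ccr7 was at 279, 277 and 231 CPM in FO and 126, 134 and 90.5 CPM in MZ libraries. The MZ libraries were lower throughout, with a log2 difference of -1.40 (SE 0.16, adjusted p = 0.0007404) in control and -1.16 (SE 0.16, adjusted p = 0.003232) in CKO mice. Ccr6 (ENSMUSG00000040899, chromosome 17, 8236043 to 8257141) stood at 55.2, 50.4 and 60.0 CPM in the control FO libraries and 26.8, 26.3 and 26.2 CPM in MZ Control libraries. In CKO mice Ccr6 was at 58.3, 44.9 and 52.3 CPM in FO and 26.5, 25.7 and 28.3 CPM in MZ libraries. Its MZ level varied least of all 7 genes (SD 0.301 CPM in MZ Control), and all MZ libraries lay below all FO libraries. The log2 difference was -1.06 (SE 0.08, adjusted p = 2.045e-06) in control and -0.94 (SE 0.10, adjusted p = 0.0003021) in CKO mice.

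Cxcr3 encodes the receptor for the interferon-induced chemokines CXCL9, CXCL10 and CXCL11 and is well known on activated T and NK cells. The gene (ENSMUSG00000050232) lies on chromosome X, 101731535 to 101734269, on the minus strand. Its FO Control libraries stood at 12.2, 11.3 and 13.3 CPM and its MZ Control libraries at 6.30, 9.34 and 7.39 CPM. In CKO mice it was at 6.35, 10.9 and 7.13 CPM in FO and 6.08, 11.8 and 5.69 CPM in MZ libraries. The FO Control libraries stood above the MZ Control libraries without overlap (log2 -0.67, SE 0.15, adjusted p = 0.006101), whereas the CKO libraries of the 2 subsets overlapped (log2 -0.04, SE 0.34, adjusted p = 0.951; 95% interval -0.85 to 0.76). The control call was lost when the spread was estimated on all 12 libraries (adjusted p = 0.1093). The difference between both genotypes in the MZ over FO contrast was itself tested and did not pass (log2 0.62, SE 0.40, adjusted p = 1). T cell markers summed to 371 to 428 CPM in FO Control and 177 to 298 CPM in MZ Control libraries, and 7 of 10 were lower in MZ libraries, against 13% of all genes. In CKO mice 2 of 10 were lower, against 7.78% of all genes. T cells also express Ccr7, Cxcr4 and Ccr6, and the part of T cell RNA in these 4 differences was not tested.

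**Figure D2:**
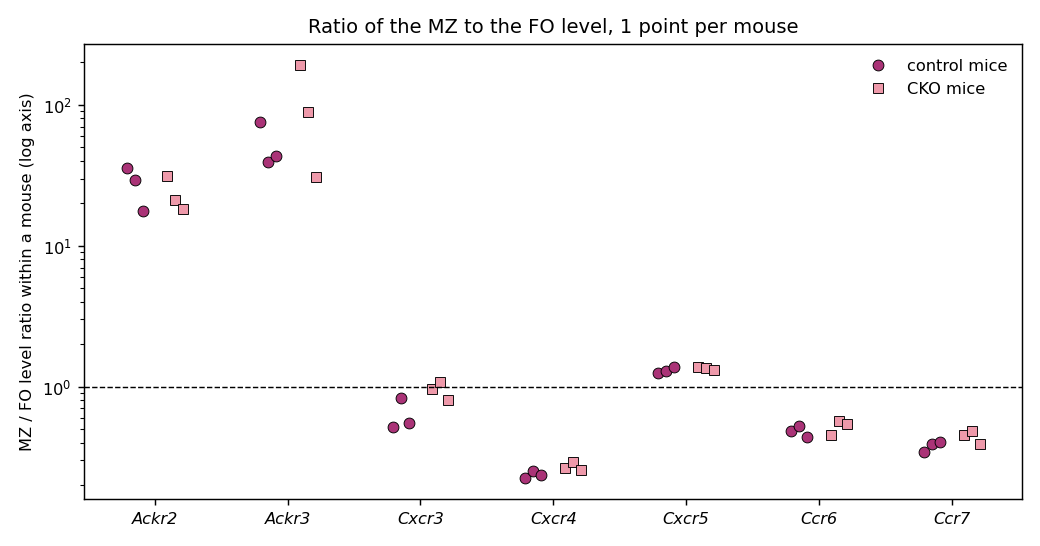
Ratio of the MZ to the FO level in CPM within each mouse (log axis), with 3 control and 3 CKO mice per gene and a dashed line at equal levels. Ratios of Ackr2 and Ackr3 lie between 17.7 and 193, those of Cxcr5 between 1.25 and 1.39, and those of Cxcr4, Ccr6 and Ccr7 below the line in all 6 mice.

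Levels were compared between genes only after division by exon length, as CPM per kilobase of merged exons. In FO Control libraries Ccr7 (149 ± 22.5, SD, n = 3), Cxcr5 (142 ± 4.58) and Cxcr4 (131 ± 28.9) led with overlapping ranges. Ccr6 (23.8 ± 2.07), Cxcr3 (7.08 ± 0.586), Ackr2 (2.23 ± 1.03) and Ackr3 (0.128 ± 0.0217) followed, each apart from the next. In MZ Control libraries Cxcr5 stood alone at 185 ± 4.998, ahead of Ccr7 (56.5 ± 9.66) and Ackr2 (56.0 ± 7.78), whose ranges overlapped. Cxcr4 (31.4 ± 8.30) and Ccr6 (11.4 ± 0.130) came next without overlap, and Ackr3 (6.50 ± 1.24) and Cxcr3 (4.43 ± 0.889) overlapped at the bottom. In MZ CKO libraries the order was Cxcr5, Ccr7, Ackr2, Cxcr4, Ackr3, Ccr6 and Cxcr3, and the ranges of Ackr2, Cxcr4 and Ackr3 each overlapped that of the next, while Ccr6 lay apart from Cxcr3. The 2 atypical genes together made up 0.539 ± 0.299% of the summed length-scaled level of the 7 genes in FO Control, 0.483 ± 0.159% in FO CKO, 17.8 ± 2.996% in MZ Control and 17.9 ± 2.57% in MZ CKO libraries (SD, n = 3). The atypical share was 14.4 to 19.9% in MZ Control and 15.4 to 20.5% in MZ CKO libraries, so these groups overlapped. The Ackr3 level itself lay above every MZ Control library in 2 of the 3 MZ CKO libraries.

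**Figure D3:**
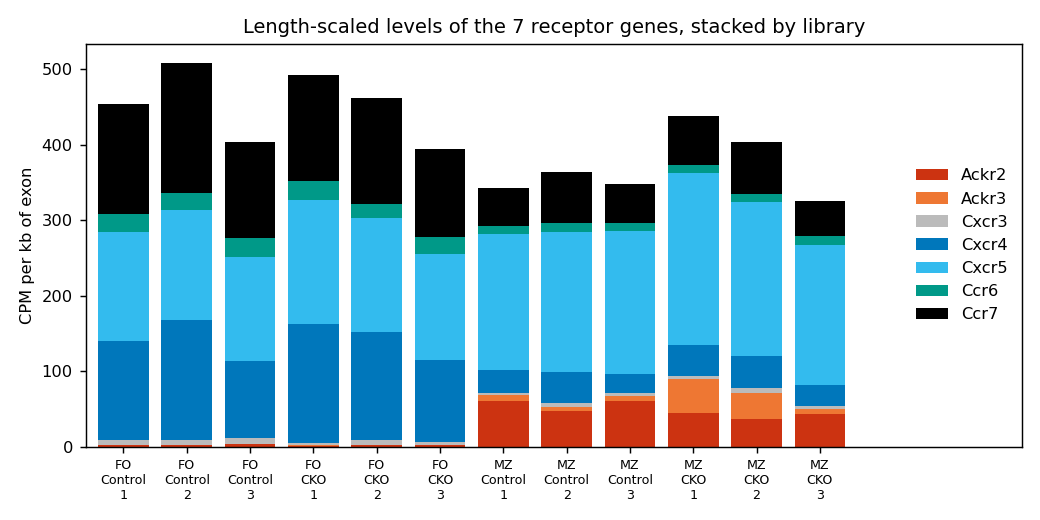
Length-scaled levels (CPM per kilobase of exon) of the 7 genes stacked for each of the 12 libraries, from a baseline of 0. Ackr2 and Ackr3 are barely visible in FO libraries and make up 14.4 to 20.5% of the bar in MZ libraries, and the Ackr3 segment is widest in MZ CKO replicates 1 and 2.

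The genotype comparisons ask which receptor transcripts differ when Zbtb24 is deleted. By edgeR's quasi-likelihood test 0 of the 7 genes passed in the FO subset and 0 in the MZ subset, as did 0 by DESeq2 and 0 by limma-voom. The share of the whole table that passed was 0.09% for FO B cells, with 0.0563% higher and 0.0338% lower in CKO libraries. For MZ B cells the share was 0.0793%, with 0.0566% higher and 0.0227% lower. At an unadjusted p under 0.05, there were 2 of the 7 in each subset, Ackr3 and Cxcr3 in FO and Ackr2 and Ackr3 in MZ B cells, where 4.03% of all genes in FO and 2.9% in MZ B cells had such a p. The control and CKO libraries did not overlap for those 2 genes in FO, where this held for 9.32% of all genes, and for Ackr2 alone in MZ B cells, where it held for 7.63%. The exact two-sided permutation p was 0.1 for each of these 3 contrasts, the smallest that 3 libraries against 3 allow.

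Ackr3 had the largest genotype differences of the 7 genes in size. In MZ B cells the CKO libraries of mice 1512 and 1514 held 6.93 and 5.37 times the MZ Control mean of 21.8 ± 4.16 CPM (SD, n = 3), and that of mouse 2002 held 1.07 times. The library of mouse 2002, at 23.3 CPM, lay within the control range of 17.95 to 26.2 CPM. The estimate was a log2 difference of 2.16 (SE 0.77, edgeR adjusted p = 1, 95% interval 0.05 to 4.26). Without MZ CKO replicate 3, which is mouse 2002, it was 2.63 and passed (adjusted p = 0.01554), a call that rests on leaving out the 1 library that did not differ. In FO B cells the CKO libraries of the same mice held 1.82, 3.04 and 1.77 times the FO Control mean of 0.430 ± 0.0728 CPM (log2 1.14, SE 0.32, edgeR adjusted p = 0.9175), from 35, 52 and 29 reads against 14, 19 and 20. Mouse 2002 was thus near the control level in MZ but above every control library in FO B cells. Of the 6 markers of endothelium, which also carries ACKR3, 5 were tested between subsets. In control mice Cdh5 (log2 1.47) and Prox1 (1.80) were higher and Pecam1 (-0.23) lower in MZ than in FO libraries. Over all genes 14.9% were higher and 13% lower there. In CKO mice 1 marker was higher and 0 lower, against 10.5% and 7.78% of all genes. None of the 6 markers passed by genotype. Their sum, mostly Pecam1, which B cells also express, was 312, 265 and 317 CPM in the MZ CKO libraries of mice 1512, 1514 and 2002. In MZ CKO libraries Cdh5 averaged 3.87 CPM, Kdr 0.686 CPM and Prox1 0.394 CPM, and Lyve1 was at 0 CPM. T cell markers summed to 231 and 244 CPM in the MZ CKO libraries of mice 1512 and 1514 and 155 CPM in that of mouse 2002, within the MZ Control range of 177 to 298 CPM for the first 2. The part of endothelial or T cell RNA in the Ackr3 level was not tested.

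Ackr2 was lower in each MZ CKO library than in every MZ Control library, at 79.9, 65.2 and 76.9% of the control mean of 175 ± 24.3 CPM (SD, n = 3). The difference did not pass (log2 -0.43, SE 0.11, edgeR adjusted p = 1, 95% interval -0.69 to -0.18). It passed when no low-count filter was used (adjusted p = 0.0007226) and with the replicate number as a block (0.03166). A replicate number stands for different mice in the control and CKO groups. MZ B cell markers summed to 6452 to 7420 CPM in MZ Control and 5652 to 7344 CPM in MZ CKO libraries. The lowest sum and the lowest Ackr2 level belonged to the same library, that of mouse 1514. The MZ CKO library of mouse 2002 had a marker sum of 7344 CPM with Ackr2 at 135 CPM. In the MZ Control library of mouse 1507 the sum was lower, 6452 CPM, and Ackr2 higher, 147 CPM. In FO B cells the Ackr2 groups overlapped (log2 -0.28, SE 0.35, 95% interval -1.11 to 0.54).

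Cxcr3 in FO B cells was lower in each CKO than in every control library, at 51.8, 89.2 and 58.2% of the control mean of 12.3 ± 1.01 CPM (SD, n = 3). The difference did not pass (log2 -0.59, SE 0.20, edgeR adjusted p = 0.9995), except with no low-count filter (adjusted p = 0.0228). T cell markers summed to 366, 356 and 256 CPM in these CKO libraries against 371 to 428 CPM in FO Control libraries, so they too were lower in each CKO library, and their part in the Cxcr3 difference was not tested. NK cell markers summed to 73.4 to 98.2 CPM in FO CKO libraries, against 48.5 to 82.8 CPM in controls.

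The remaining classical receptor genes had small genotype estimates. In FO B cells the log2 difference was 0.05 for Cxcr4 (95% interval -0.51 to 0.62), 0.10 for Cxcr5 (-0.06 to 0.26), -0.09 for Ccr6 (-0.32 to 0.14) and -0.16 for Ccr7 (-0.45 to 0.12). In MZ B cells it was 0.24 for Cxcr4 (-0.42 to 0.91), 0.15 for Cxcr5 (-0.05 to 0.35), 0.02 for Ccr6 (-0.17 to 0.21) and 0.07 for Ccr7 (-0.38 to 0.51), and for Cxcr3 0.03 (-0.65 to 0.71). Their control and CKO libraries overlapped in both subsets. All these intervals lay within 1 log2 unit of 0, and those of Ccr6 and Cxcr5 were narrower than those of Cxcr4 and Ccr7 in both subsets.

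**Figure D4:**
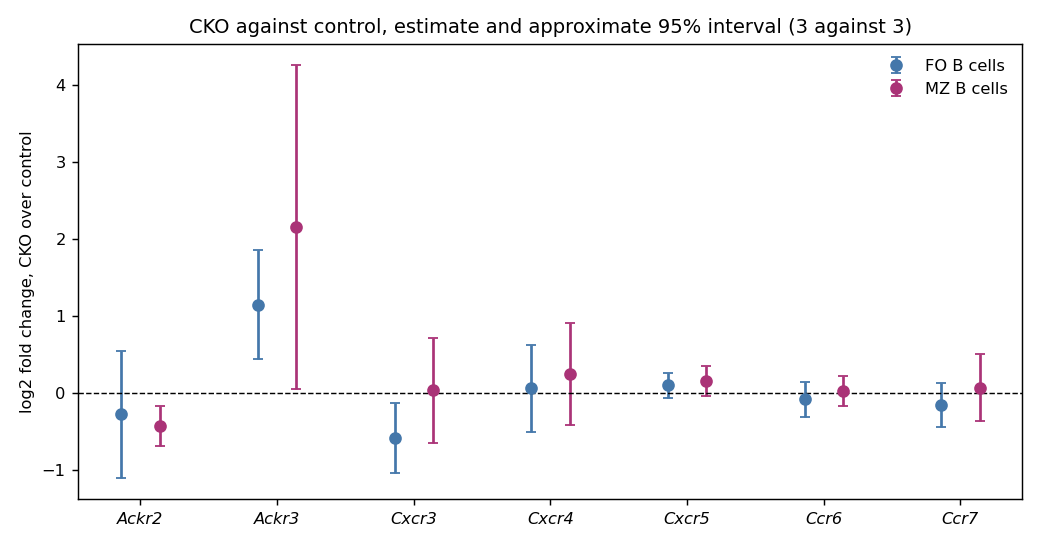
Log2 fold change of CKO over control for the 7 genes in FO and MZ B cells, with the estimate and its approximate 95% interval from edgeR on 3 against 3 libraries. Intervals exclude 0 for Ackr3 in both subsets, for Cxcr3 in FO and for Ackr2 in MZ B cells, and 0 of the 14 differences passed after adjustment over all genes.

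Whether the genotype difference itself differed between subsets was tested on all 12 libraries, and 0 of the 7 genes passed, as did 0 of 18546 genes in all by edgeR, by DESeq2 and by limma-voom (238 genes had an unadjusted p under 0.05). The estimate for Ackr3 was 1.02 (SE 1.14, 95% interval -1.59 to 3.64) and for Ackr2 -0.14 (SE 0.41, 95% interval -1.08 to 0.79) on the log2 scale. For Cxcr4 it was 0.19 (SE 0.36, 95% interval -0.63 to 1.02). These intervals come from a fit that does not pair the libraries of a mouse. In the fit with the mouse as a block the estimate for Cxcr4 was 0.19 with a smaller SE of 0.087 (adjusted p = 0.8955). There it was 0.98 (SE 0.87) for Ackr3 and -0.17 (SE 0.38) for Ackr2. With the mouse as a block 4 genes of the table passed (0.0216% of those tested), and 0 of the 7.

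Other genes of the chemokine system were taken from 3 lists. Of 17 further chemokine receptor genes 14 were tested in control mice, and 1 was higher and 1 lower in MZ than in FO libraries (median log2 -0.38 against 0.01 over all genes), where 27.9% of all genes passed. Ccr1, a receptor for CCL3 and CCL5, rose from 6.36 to 37.4 CPM (log2 2.55, SE 0.15), and Ccr9, the receptor for the gut chemokine CCL25, fell from 9.81 to 6.49 CPM (log2 -0.59, SE 0.17). In CKO mice Ccr1 was again higher in MZ libraries (log2 2.25, edgeR adjusted p = 0.003292; 0.05082 with the mouse as replicate block), and Ccr2, a receptor for CCL2, was lower (log2 -0.75). Ccr1 and Ackr2, whose proteins both bind CCL5, were thus both higher in MZ libraries. The part of macrophage or monocyte RNA in the Ccr1 and Ccr2 levels was not tested. Of 19 ligand genes only 7 were expressed enough to be tested. In control mice 1 was higher, Mif, a cytokine that can bind CXCR4, at 76.4 against 57.4 CPM (log2 0.41), and 1 lower, the T cell chemokine gene Ccl5, at 8.77 against 13.7 CPM (log2 -0.64). In CKO mice 2 of the 7 ligand genes tested were higher and 0 lower, where 10.5% of all genes were higher and 7.78% lower. Mif had a log2 difference of 0.61, and the other ligand gene averaged under 5 CPM in both subsets.

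Of 44 genes of G protein signalling, receptor desensitisation and migration 43 were tested. In control mice 5 were higher and 21 lower in MZ than in FO libraries (median log2 -0.29), and in CKO mice 6 were higher and 11 lower (median log2 -0.13). Over all genes 14.9% were higher and 13% lower in control mice, and 10.5% and 7.78% in CKO mice. The genes that rose by most in control mice were Rgs10 from 15.7 to 69.9 CPM (log2 2.16) and Rgs3 from 38.8 to 76.2 CPM (log2 0.97), which encode GTPase activators of G protein alpha subunits, and the receptor kinase genes Grk3 from 23.0 to 90.5 CPM (log2 1.98) and Grk5 from 6.10 to 12.1 CPM (log2 0.99). Other members of the same families fell in control mice, namely the receptor kinase genes Grk2 (log2 -0.43) and Grk6 (-0.36) and the GTPase activator gene Rgs14 (-0.45). The arrestin gene Arrb1 (-0.39), of another family, fell as well. These genes were named after their values were seen. At 5 CPM or more in the higher group, the genes that passed and fell by most were led by the adhesion GTPase gene Rap1b, from 194 to 117 CPM (log2 -0.73). Next came its exchange factor gene Rasgrp2 from 490 to 327 CPM (log2 -0.58), the kinase gene Pik3cg (log2 -0.58) and the G protein modulator gene Gpsm3 (log2 -0.48). In CKO mice Rgs10 (log2 2.26), Grk3 (1.54), Grk5 (1.02) and Rgs3 (1.01) were also higher, and Rap1b (-0.78), Rgs1 (-0.77), Rasgrp2 (-0.60) and Pik3cg (-0.44) lower.

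By genotype 0 of the 64 genes tested from these 3 lists passed edgeR's test in FO and 0 of 64 in MZ B cells, with 6 and 8 at an unadjusted p under 0.05 (4.03% and 2.9% over all genes). The smallest p among signalling genes in MZ B cells at 5 CPM or more was that of Grk3, which averaged 90.5 ± 13.6 CPM in MZ Control and 58.2 ± 5.85 CPM in MZ CKO libraries (SD, n = 3; log2 -0.64, edgeR adjusted p = 0.1993). With the replicate number as a block Grk3 passed (adjusted p = 0.01509). In FO B cells Rgs18, another GTPase activator gene, averaged 2.32 ± 1.78 CPM across FO Control libraries against 9.33 ± 2.68 CPM across those of CKO mice (SD, n = 3; log2 2.01, edgeR adjusted p = 0.9995). In MZ B cells it averaged 5.80 ± 3.38 against 15.4 ± 2.05 CPM (log2 1.42, edgeR adjusted p = 1). The 7 neutrophil markers summed to 57.3, 144 and 93.2 CPM in FO Control libraries and 96.3, 270.2 and 150.2 CPM in those of FO CKO, with a median log2 difference of 0.98 for the FO and 0.997 for the MZ subset. They summed to 39.2 to 105.8 CPM in MZ Control and 54.2 to 163.5 CPM in MZ CKO libraries. Their median log2 difference of MZ against FO was -0.60 in control and -0.87 in CKO mice, while Rgs18 averaged more in MZ. None of the 7 neutrophil markers passed by genotype, and their part in the Rgs18 level was not tested. Pik3r5, a regulatory subunit gene of the kinase of Pik3cg, had a log2 difference of -0.27 in FO B cells (edgeR adjusted p = 0.9088).

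The genes whose levels most resembled those of each receptor were found by Pearson's r of log2 CPM over the 12 libraries, among 9472 protein-coding genes. The 12 points share mice and fall into 2 subsets, so r is given as a description. Ackr2 was most like Fcrl5 (r = 0.998), Myof (0.997) and Cdh17 (0.997), and Myof is also on the MZ B cell marker list. Fcrl5, an Fc receptor-like gene, averaged 30.4 CPM in the control FO and 275 CPM in the control MZ libraries. Cxcr4 was most like Trib2 (r = 0.998), Il27ra (0.992) and Tcp11l2 (0.992), and Ccr7 most like Myadm (0.992), Il27ra (0.991) and Cmtm6 (0.990), so the cytokine receptor gene Il27ra appeared for both. Ccr6 was most like Rictor (r = 0.991), Aff4 (0.989) and Ankrd44 (0.989). Cxcr5 was most like Pgm2 (r = 0.978), Pccb (0.976) and Nop10 (0.9746), and Ackr3 like Abcb8, Cdk4 and Pgm2 (each 0.980). The weakest likeness was that of Cxcr3, with Rab11fip1 (r = 0.940), Socs7 (0.912) and Rpa2 (0.904).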

How the data were processed

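TruSeq libraries were made, per the labels, from 0.1 ug of RNA of 12 FO and MZ B cell samples. Raw read counts per Ensembl gene were deposited by the authors, who used TopHat, HTSeq and DESeq2 with build GRCm38, per the submitters' processing notes. Versions, the strand setting and the annotation release are not given in the sources used here. Of all entries per library, 43.2 to 50.4% named no gene and were left out. GENCODE symbols matched 45229 of 46078 genes. Counts were fitted with edgeR 4.0.16 in R 4.3.3 (filterByExpr, TMM, robust quasi-likelihood test), separately on the 6 libraries of each comparison and on all 12 for the difference of genotype effects. A gene passed where its p, adjusted by Benjamini-Hochberg across the genes tested, was under 0.05. SE and 95% intervals were derived from the F statistic. CPM used TMM library sizes of the 12-library table, with a prior count of 2 for log2 values. Alternatives were RLE size factors, no low-count filter, no robust dispersion, DESeq2 1.42.0, limma 3.58.1 (voom), a replicate block, a fit on all 12 libraries and leaving out each library. The script was tested on simulated data.

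Libraries of 1 group differed beyond counting noise (chi-square per degree of freedom 21.8 to 67.7). Beyond strain, genotype and age, the labels tell the mice apart only by their numbers. The p-values set each difference against the spread between these libraries. FO and MZ libraries of a number correlated in their deviations from group means (0.702 to 0.842), so the number pairs MZ with FO libraries. Of each further gene list up to 4 genes per direction that passed were named, by size of log2 change given a mean of 5 CPM or more in the higher group, or up to 2 by smallest p where none passed, and 3 genes by likeness for each receptor. The receptor genes, lists and tests were chosen with earlier results of these data known.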

Additional observations from a re-analysis of the deposited data

How the results depend on the processing

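Of 490 values of the 7 receptor genes under alternatives, 480 kept their side of the threshold, 6 no longer passed and 4 newly passed. Among the 480, 18 changed sign, all of them estimates that passed neither way: Ackr2, Cxcr4, Ccr6, Ccr7 and Cxcr3 by genotype, Cxcr3 between subsets in CKO mice, and Ackr2 and Cxcr5 in the difference of genotype effects. The number of genes passing in FO by genotype, 16, became 140 with no low-count filter, 40 by DESeq2 and 25 with the replicate block, and 11 to 31 when 1 library was left out (31 without FO CKO replicate 3). In MZ by genotype, 14 became 95 with no low-count filter, 7 without robust dispersion, 38 by DESeq2, 7 by limma-voom and 57 with the replicate block, and 5 to 34 with 1 library left out (5 without MZ Control replicate 2, 34 without MZ CKO replicate 3). The receptor genes passing rose from 0 to 1 with no low-count filter in each subset (Cxcr3 in FO, Ackr2 in MZ) and from 0 to 1 in MZ with the replicate block (Ackr2). With 1 library left out they numbered 0 in FO and 0 to 1 in MZ. For MZ against FO, 4977 genes in control mice became 7805 with the replicate block and 3585 to 5012 with 1 library left out. The 3243 genes in CKO mice became 6333 with the block and 1898 to 2884 with 1 library left out (1898 without FO CKO replicate 1), and the receptor genes passing numbered 7 in control and 4 to 6 in CKO mice. The difference of genotype effects went from 0 to 4 genes with the block. A replicate number stands for different mice in the control and CKO groups. For replicates 1, 2 and 3, deviations of control and CKO libraries correlated at 0.0535, 0.360 and 0.404 in FO. In MZ the correlations were -0.172, 0.442 and 0.469. Libraries of replicates 2 and 3 thus varied in part together across genotypes, and those of replicate 1 did not. The cause of these correlations and of the changes in gene numbers was not tested.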

Other observations

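Cxcr4 and Ccr7 varied between mice in the FO and the MZ libraries alike. Among control mice, mouse 1507 had the highest Cxcr4 level in both subsets (289 and 73.3 CPM) and mouse 2003 the lowest (185 and 43.9 CPM). Among CKO mice, mouse 2002 had the lowest level in both (195 and 50.3 CPM). Ccr7 was highest in mouse 1507 (341 CPM in FO and 134 CPM in MZ libraries) among control mice, and lowest in mouse 2002 (231 and 90.5 CPM) among CKO mice. Mouse 2002 also had the lowest T cell marker sums of the CKO mice, at 256 CPM in FO and 155 CPM in MZ libraries. In control mice 1505, 1507 and 2003 these sums were 371, 428 and 418 CPM in FO and 194, 298 and 177 CPM in MZ libraries. Mouse 2003 thus had the lowest sum of the control mice in MZ but not in FO libraries. The part of T cell RNA in the Cxcr4 and Ccr7 levels was not tested.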
